A study of Mus musculus with 9 samples.

Results

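The expression of 9 genes for non-collagen bone matrix and osteocyte surface proteins was described in MC3T3-E1 cells treated with organic or inorganic phosphate. The genes were *Bglap*, *Bglap2* and *Bglap3* (osteocalcin and its paralogs), *Mgp* (matrix Gla protein), *Sparc* (osteonectin), *Ifitm5*, *Postn* (periostin), *Pdpn* (podoplanin) and *Cd44*. They were chosen by name, as matrix or surface proteins outside the SIBLING family of phosphoproteins, and all 9 were found among the 55416 genes of the count table. All 9 also passed the filter on low counts, which left 13679 genes for testing.

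MC3T3-E1 is a pre-osteoblastic line from mouse calvaria, with a wild type genotype in the labels, and the study used subclone 4. All cells, Control included, had been matured into osteocyte-like cells in a medium that held 10 mM β-glycerophosphate (BGP), 50 µg/mL ascorbic acid and 0.1 µM dexamethasone. At day 27 cells received 4 mM BGP, an organic phosphate, 4 mM of a sodium phosphate mixture (NaHPO4), an inorganic phosphate, or neither (Control), and total RNA was taken after 16 h, at day 28. Each condition had 3 libraries, made from poly(A) RNA. The labels keep the cells in this osteogenic medium up to treatment, whereas the study's methods take BGP out of it for the last week. The culture medium itself holds phosphate, so Control cells were not free of it. The labels do not say whether the libraries of a condition came from separate cultures, so p-values measure only the spread between these libraries, which may be technical.

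Libraries held between 21390839 and 28234404 counts. No library was a copy of another, since the chi-square of gene counts, divided by its degrees of freedom, was 2.64 to 4.88 between replicates and 5.96 to 18.2 between conditions. The osteoblast genes *Col1a1*, *Col1a2*, *Runx2*, *Sp7* and *Alpl* were present in every library, as were the osteocyte genes *Dmp1* and *Phex*, while *Sost* reached at most 1.57 CPM (counts scaled to a common library size). Summed over 7 osteoblast markers, which include *Bglap* and *Bglap2*, CPM lay between 97500 and 105000 in Control, 94800 and 101000 in BGP, and 85100 and 91800 in NaHPO4. Almost all of this sum was *Col1a1* and *Col1a2*, at means of 43300 and 56400 CPM in Control. Means in Control, BGP and NaHPO4 were 421, 423 and 395 CPM for *Runx2* and 553, 566 and 518 for *Sp7*. For *Alpl* they were 76.9, 73.2 and 66.5 CPM. The sum of 6 osteocyte markers, which include *Pdpn*, was 138 to 159 CPM in Control, 600 to 687 in BGP and 386 to 445 in NaHPO4, with *Dmp1* alone at a mean of 76, 552 and 349 CPM. In the same order, means were 34.7, 41.6 and 36.7 CPM for *Phex* and 1.2, 8.39 and 1.54 for *Fgf23*. The rest did not follow the sum, with *Pdpn* at 30.5, 30.1 and 30.4 CPM. *Mepe* stood at 3.45, 3.44 and 3.07 CPM, and *Sost* at 1.39, 1.21 and 0.427. Of 5 adipocyte markers, 4 endothelial markers and 4 muscle markers, *Cidec*, *Kdr*, *Myod1* and *Myog* had no count, and the lists summed to at most 15.7, 0.187 and 10.1 CPM. Of 5 macrophage or osteoclast markers, *Ptprc* had at most 1 count and *Acp5* at most 4, so that the sum of 250 to 296 CPM was almost all *Ctsk*. Of 5 chondrocyte markers, *Matn1* had no count and *Acan* at most 1, whereas *Col2a1* brought the sum to 248 to 306 CPM in Control, 339 to 445 in BGP and 185 to 264 in NaHPO4. The part of these shifts in the values below was not tested. In such bulk RNA, fewer cells of a type and less RNA per cell cannot be told apart.

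Osteocalcin and matrix Gla protein are small secreted proteins whose glutamate residues are carboxylated by a vitamin K dependent enzyme, which lets them bind calcium and mineral. Osteocalcin is made by mature osteoblasts and is a standard marker of them, whereas matrix Gla protein is known as an inhibitor of mineralization in cartilage and vessel wall. SPARC and periostin bind collagen and help to assemble it, IFITM5 is a small membrane protein of mineralizing osteoblasts, podoplanin marks young osteocytes, and CD44 is a receptor for hyaluronan.

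The mouse osteocalcin genes lie side by side on the minus strand of chromosome 3 (GRCm39). *Bglap3* (ENSMUSG00000074489) spans chr3:88275923-88280052, *Bglap2* (ENSMUSG00000074486) spans chr3:88285043-88286060 and *Bglap* (ENSMUSG00000074483) spans chr3:88290808-88291771, with 4990 and 4747 bases between neighbours. Their coding sequences are all 285 bases long. *Bglap* and *Bglap2* differ at 4 coding positions (98.6% identity), counted from the first base of the start codon, namely A10C, T14C, A31G and T273C with the base of *Bglap* first. *Bglap* and *Bglap3* differ at 13 positions (95.4%), and *Bglap2* and *Bglap3* at 9 (96.8%). Coding bases 184 to 273 are shown because they hold 7 of the 13 positions at which any of the genes differ. No other stretch of this length holds more. Within it *Bglap* and *Bglap2* differ only at base 273, so any part of it without that base is the same in both. Capitals mark the differing positions.
Bglap: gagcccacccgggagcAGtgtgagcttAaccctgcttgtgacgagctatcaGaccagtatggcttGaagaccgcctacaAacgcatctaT
Bglap2: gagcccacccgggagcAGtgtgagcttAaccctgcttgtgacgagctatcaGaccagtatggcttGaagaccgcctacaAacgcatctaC
Bglap3: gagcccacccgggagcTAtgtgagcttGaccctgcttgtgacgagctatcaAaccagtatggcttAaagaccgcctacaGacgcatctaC

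Near-identical sequence bears on every osteocalcin value that follows. Of all 50-base windows of the canonical transcript, 74.7% for *Bglap*, 80.0% for *Bglap2* and 25.1% for *Bglap3* also occur in a paralog. The study sequenced 50 bases from both ends of each fragment. These shares are of single windows, and the share of read pairs that match several genes was not computed. The sources used here do not say how reads that match several genes were counted, so the split of counts between the paralogs is uncertain, and their sum is given beside it.

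The 250 bases before the RefSeq start of *Bglap* are shown as the promoter of the best known member, at chr3:88291774-88292023 on the minus strand. Capitals mark a CCAAT box, at positions -90 to -86 before the start, and a TATA box (TATAAA), at -27 to -22.
Bglap promoter: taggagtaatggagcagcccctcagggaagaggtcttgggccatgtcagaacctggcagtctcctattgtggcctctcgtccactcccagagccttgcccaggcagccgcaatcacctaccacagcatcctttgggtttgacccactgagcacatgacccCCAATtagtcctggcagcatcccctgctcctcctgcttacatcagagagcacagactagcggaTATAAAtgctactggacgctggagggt

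Promoters from RefSeq were at hand for 7 of the 9 genes, those of *Bglap2* and *Mgp* being absent from the table. The 7 genes had 10 windows of 250 bases, 3 of them for *Bglap3*, and the shares below are over windows. Searched on both strands, TATAAA was found in 2 of 10 windows, of *Bglap* and *Postn*, against 12.4% of all 32851 windows. CCAAT was found in 4 of 10, of *Bglap* and all 3 of *Bglap3*, against 33.8%, and the GC box GGGCGG in 1 of 10, that of *Ifitm5*, against 32.7%. The RUNX motif AACCACA and the AP-1 motif TGANTCA were found in 0 of 10, against 4.4% and 6.75%. Only these exact letters were searched, so sites with other letters were not counted. The *Bglap* window printed above holds taccaca, which differs from AACCACA only in its first base. The windows of *Ifitm5* and *Sparc* and 2 of those of *Bglap3* lie wholly inside the annotated span of their gene, and 3 others overlap it in part, so these 7 are not upstream of every annotated start. These matches describe the letters of the window and nothing more.

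The other members are scattered over the genome. *Mgp* (ENSMUSG00000030218) spans chr6:136849433-136852821, *Sparc* (ENSMUSG00000018593) chr11:55285317-55314067, *Ifitm5* (ENSMUSG00000025489) chr7:140528871-140532098, *Pdpn* (ENSMUSG00000028583) chr4:142990871-143026143 and *Cd44* (ENSMUSG00000005087) chr2:102641486-102732010, all on the minus strand. *Postn* (ENSMUSG00000027750) spans chr3:54268501-54298471 on the plus strand. *Mgp*, *Postn* and *Cd44* share no 50-base window with another gene, and *Sparc*, *Pdpn* and *Ifitm5* share 0.473%, 2.14% and 6.69% of theirs. *Ifitm5* shares 227 exon bases with the same-strand model *Gm45717*, which had 0 counts. *Postn* and *Cd44* share 80 and 207 exon bases with the opposite-strand lncRNAs *Gm31095* and *Gm57471*, which are absent from the count table, and whether strand was used in counting is not given in the sources used here.

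Per length, *Sparc* stood far above the other members. Levels per length are given as CPM per kilobase of merged exons (RPKM), with the SD over 3 libraries. In Control, *Sparc* was at 4620 ± 121 RPKM, *Bglap2* at 771 ± 20.8, *Bglap* at 424 ± 20.3, *Postn* at 336 ± 15.9, *Mgp* at 222 ± 7.81, *Cd44* at 50.3 ± 1.47, *Ifitm5* at 35.3 ± 1.36, *Pdpn* at 6.16 ± 0.156 and *Bglap3* at 2.01 ± 0.269. No neighbours in this order overlapped in Control. *Sparc* ranked 5 and *Bglap2* 18 among the 13631 tested genes with a known length, while *Pdpn* ranked 5041 and *Bglap3* 8967. *Sparc* took 1.96% of all Control counts and *Postn* 0.293%.

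Per kilobase of merged exons, the order changed with treatment at a single place. In both phosphate conditions *Mgp* moved past *Postn*, with 314 ± 4.73 against 306 ± 6.66 RPKM in BGP and 311 ± 26.2 against 288 ± 4.36 RPKM in NaHPO4, although the libraries of these neighbours overlapped in both. The order also depends on the length used. Per kilobase of the canonical transcript, *Postn* came second in Control, at 931 ± 43.8 RPKM, ahead of *Bglap2* at 771 ± 20.4, and *Bglap3* came eighth, at 10.3 ± 1.38, ahead of *Pdpn* at 6.21 ± 0.154. On that length *Postn* stayed second in both phosphate conditions, though in BGP its libraries overlapped those of *Bglap2*. *Mgp* instead passed *Bglap*, at 612 ± 10.3 against 608 ± 28.9 RPKM in BGP and 606 ± 51.2 against 538 ± 26.3 in NaHPO4. The libraries of *Mgp* and *Bglap* overlapped in both.

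**Figure D1:**
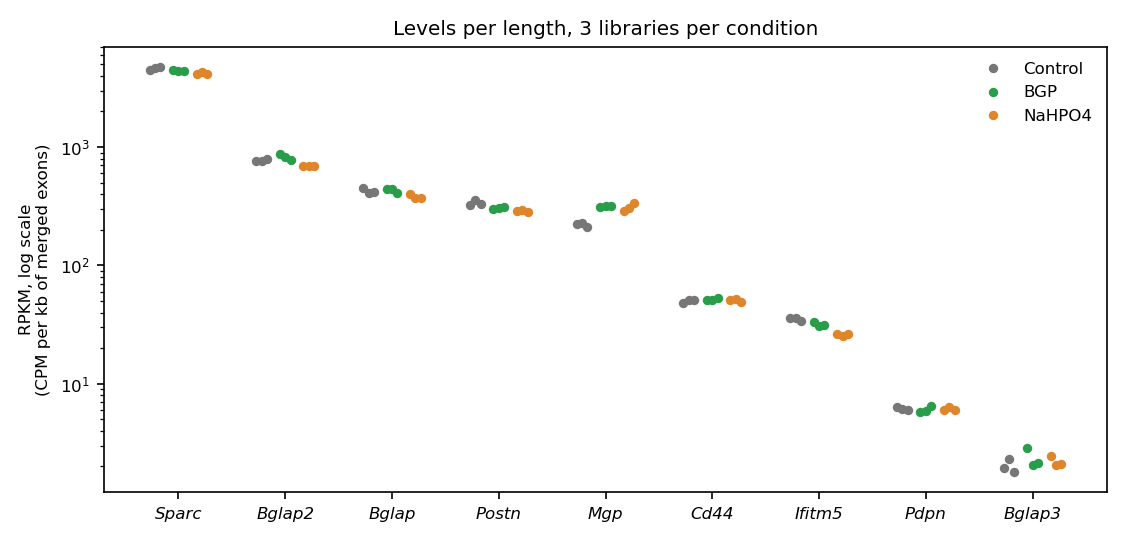
Level of each gene per length (RPKM, log axis), with 1 point per library and 3 libraries each for Control (grey), BGP (green) and NaHPO4 (orange). *Sparc* lies highest in all 9 libraries and *Bglap3* lowest, and the *Mgp* points of both phosphate conditions lie above those of Control.

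Among the Gla proteins, *Mgp* rose with both phosphates and was the member with the largest change. *Mgp* stood at 269, 270 and 253 CPM in Control, 366, 378 and 375 CPM in BGP, and 340, 365 and 402 CPM in NaHPO4. Every phosphate-treated library lay above every Control library. *Mgp* was 1.41-fold higher in BGP than in Control (log2FC 0.50, SE 0.0411, adjusted p = 2.51e-11 in edgeR's quasi-likelihood test) and 1.4-fold higher in NaHPO4 than in Control (log2FC 0.48, SE 0.0409, adjusted p = 6.34e-11). The unrounded changes, 0.499 and 0.483, fell just short of the minimum of 0.5 that the study's definition of a differentially expressed gene (DEG) requires beside an FDR below 0.05. Between BGP and NaHPO4 the *Mgp* difference was 0.016 on the log2 scale, with a 95% interval from -0.066 to 0.098 (adjusted p = 0.902), and the libraries overlapped. The NaHPO4 libraries were the most spread, with a coefficient of variation of 8.39% against 1.61% in BGP. *Mgp* passed the DEG minimum in BGP when Control 1, Control 2 or BGP 1 was left out or when only the compared conditions were fitted, and in NaHPO4 without Control 2, without NaHPO4 1 or with total counts as the scale.

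*Bglap*, the first osteocalcin gene, fell with NaHPO4 and did not pass the test with BGP. Its levels were 276, 252 and 258 CPM in Control, 275, 275 and 253 CPM in BGP, and 250, 231 and 229 CPM in NaHPO4. All NaHPO4 libraries lay below all others, while BGP and Control overlapped. The log2FC was -0.15 for NaHPO4 against Control (SE 0.0396, adjusted p = 0.0146), 0.03 for BGP against Control (95% interval -0.051 to 0.11, adjusted p = 0.817) and 0.18 for BGP against NaHPO4 (SE 0.0396, adjusted p = 0.00377). The fall with NaHPO4 lost its call without Control 1 (adjusted p = 0.171), without NaHPO4 2 (0.0952) and without NaHPO4 3 (0.0873).

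*Bglap2*, the osteocalcin gene with the most counts, was called in the same comparisons as *Bglap*. It stood at 399, 398 and 417 CPM in Control, 456, 431 and 412 CPM in BGP, and 366, 367 and 366 CPM in NaHPO4. The NaHPO4 libraries were nearly equal to each other and below the rest, whereas BGP 3 lay within the Control range. *Bglap2* was lower in NaHPO4 than in Control (log2FC -0.14, SE 0.0347, adjusted p = 0.00591) and higher in BGP than in NaHPO4 (log2FC 0.24, SE 0.0346, adjusted p = 8.62e-06). The difference between BGP and Control was 0.10 on the log2 scale (95% interval 0.026 to 0.167) and did not pass the test after adjustment over all genes (adjusted p = 0.159). Without Control 3 the fall with NaHPO4 had an adjusted p of 0.0523.

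*Bglap3*, a paralog with few counts here, showed no call in any comparison. It was found at 7.11, 8.53 and 6.61 CPM in Control, 10.5, 7.59 and 7.82 CPM in BGP, and 8.95, 7.65 and 7.77 CPM in NaHPO4, from 152 to 246 counts a library. The conditions overlapped throughout. The log2FC was 0.22 for BGP (95% interval -0.042 to 0.48, adjusted p = 0.484) and 0.13 for NaHPO4 against Control (-0.122 to 0.391, adjusted p = 0.625), so that changes of the size seen for *Bglap* were not detectable with these counts and this spread.

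The sum of the 3 osteocalcin genes does not depend on how reads were split between them, though reads matching several genes may have been left out of it. Summed levels were 683, 658 and 682 CPM in Control, 741, 713 and 672 CPM in BGP, and 625, 606 and 603 CPM in NaHPO4. Fitted as a single gene, osteocalcin fell by 9.36% with NaHPO4 (log2FC -0.14, adjusted p = 0.00502). It was 1.16-fold higher in BGP than in NaHPO4 (log2FC 0.21, adjusted p = 3.99e-05) and did not pass the test for BGP against Control (log2FC 0.07, 95% interval 0.004 to 0.141, adjusted p = 0.334). *Bglap2* held 58.5% to 61.5% of the sum, *Bglap* 37.1% to 40.5% and *Bglap3* 0.97% to 1.43%. The ratio of *Bglap2* to *Bglap* counts lay between 1.44 and 1.66 over the 9 libraries. The conditions overlapped in this ratio, with exact permutation p-values (two-sided, 3 against 3 libraries) of 0.3 for BGP and 0.8 for NaHPO4 against Control and 0.3 for BGP against NaHPO4, where 0.1 is the smallest that this design allows.

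**Figure D2:**
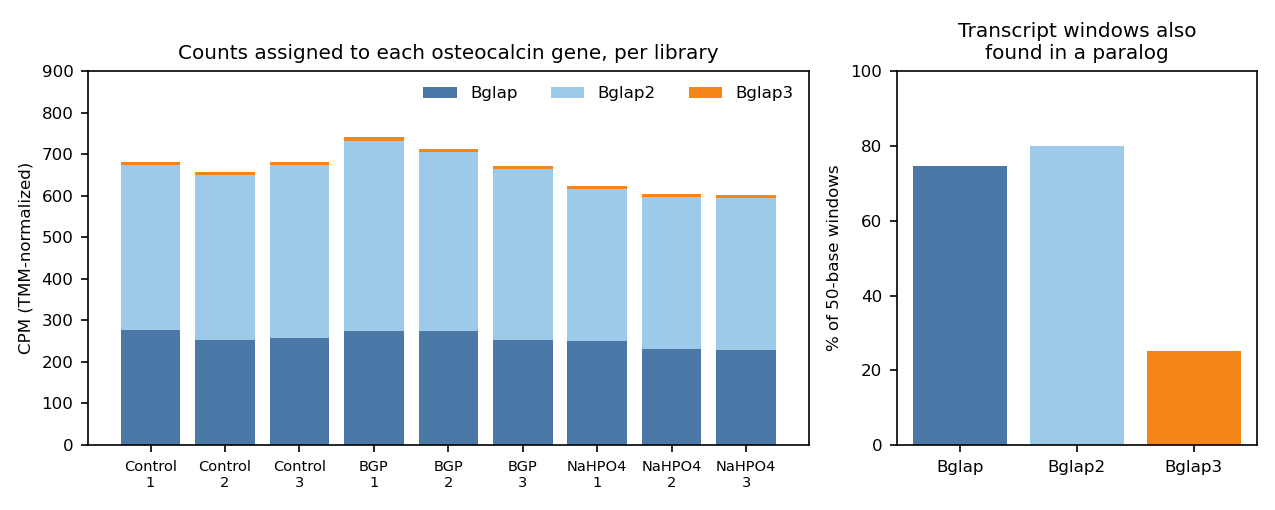
Left, CPM assigned to *Bglap*, *Bglap2* and *Bglap3*, stacked for each of the 9 libraries. Right, the percentage of 50-base windows of each canonical transcript that also occur in a paralog. The stacks reach 603 to 625 CPM in the NaHPO4 libraries and 658 or more in the others, in nearly the same proportions, and 74.7% and 80.0% of the *Bglap* and *Bglap2* windows are shared.

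Among the collagen-binding matrix proteins, *Sparc*, which encodes a calcium- and collagen-binding glycoprotein, fell with NaHPO4. It stood at 19200, 19800 and 20200 CPM in Control, 19000, 18800 and 18700 CPM in BGP, and 17700, 18400 and 17700 CPM in NaHPO4. The conditions did not overlap, with Control highest and NaHPO4 lowest. *Sparc* fell by 8.90% with NaHPO4 (log2FC -0.13, SE 0.0283, adjusted p = 0.00141). The difference of BGP from Control was -0.065 on the log2 scale (95% interval -0.122 to -0.007, adjusted p = 0.291) and that of BGP from NaHPO4 was 0.07 (0.012 to 0.127, adjusted p = 0.175), and neither passed the test.

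*Postn*, whose product binds collagen and aids its crosslinking, was lower than Control with both phosphates. It was found at 2830, 3100 and 2910 CPM in Control, 2650, 2660 and 2750 CPM in BGP, and 2500, 2570 and 2500 CPM in NaHPO4. The order of the conditions was that of *Sparc*, again with no overlap. *Postn* fell by 14.4% with NaHPO4 (log2FC -0.22, SE 0.0319, adjusted p = 4.41e-06), and it fell by 8.94% with BGP (log2FC -0.13, SE 0.0319, adjusted p = 0.0119). BGP and NaHPO4 differed by 0.089 on the log2 scale (95% interval 0.024 to 0.154, adjusted p = 0.105). The fall with BGP lost its call without Control 2 (adjusted p = 0.141), without BGP 1 (0.0935) and without BGP 2 (0.0906).

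Among the membrane proteins, *Ifitm5*, known for its role in mineralizing osteoblasts and as a disease gene of brittle bone, showed the largest fall. It stood at 96.1, 95.7 and 89.5 CPM in Control, 88.7, 82.1 and 83.3 CPM in BGP, and 70, 67.4 and 69.4 CPM in NaHPO4. The conditions were stepped with no overlap, BGP between Control and NaHPO4, and the Control and BGP libraries nearly touched. *Ifitm5* fell by 26.5% with NaHPO4 (log2FC -0.44, SE 0.0425, adjusted p = 1.18e-09) and was 1.23-fold higher in BGP than in NaHPO4 (log2FC 0.30, SE 0.0429, adjusted p = 9.2e-06). Against Control, the BGP difference of -0.15 (95% interval -0.233 to -0.06) had an adjusted p of 0.055 and did not pass. Among the alternatives that changed this, it passed without Control 3 (adjusted p = 0.0296), without BGP 1 (0.037), without NaHPO4 1 (0.044) and in edgeR's likelihood ratio test (0.0357).

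*Pdpn* and *Cd44*, the surface proteins, showed no call in any comparison. *Pdpn* was at 31.4, 30.2 and 30 CPM in Control, 28.6, 29.3 and 32.4 CPM in BGP, and 29.7, 31.7 and 29.8 CPM in NaHPO4. *Cd44* was at 329, 346 and 347 CPM in Control, 348, 344 and 357 CPM in BGP, and 348, 350 and 335 CPM in NaHPO4. All conditions overlapped for both genes. The 95% intervals of the log2FC against Control were -0.144 to 0.106 with BGP and -0.127 to 0.118 with NaHPO4 for *Pdpn* (adjusted p = 0.933 and 0.978), and -0.031 to 0.104 and -0.052 to 0.083 for *Cd44* (adjusted p = 0.699 and 0.861). For BGP against NaHPO4 the intervals were -0.138 to 0.108 for *Pdpn* (adjusted p = 0.949) and -0.046 to 0.089 for *Cd44* (adjusted p = 0.827).

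**Figure D3:**
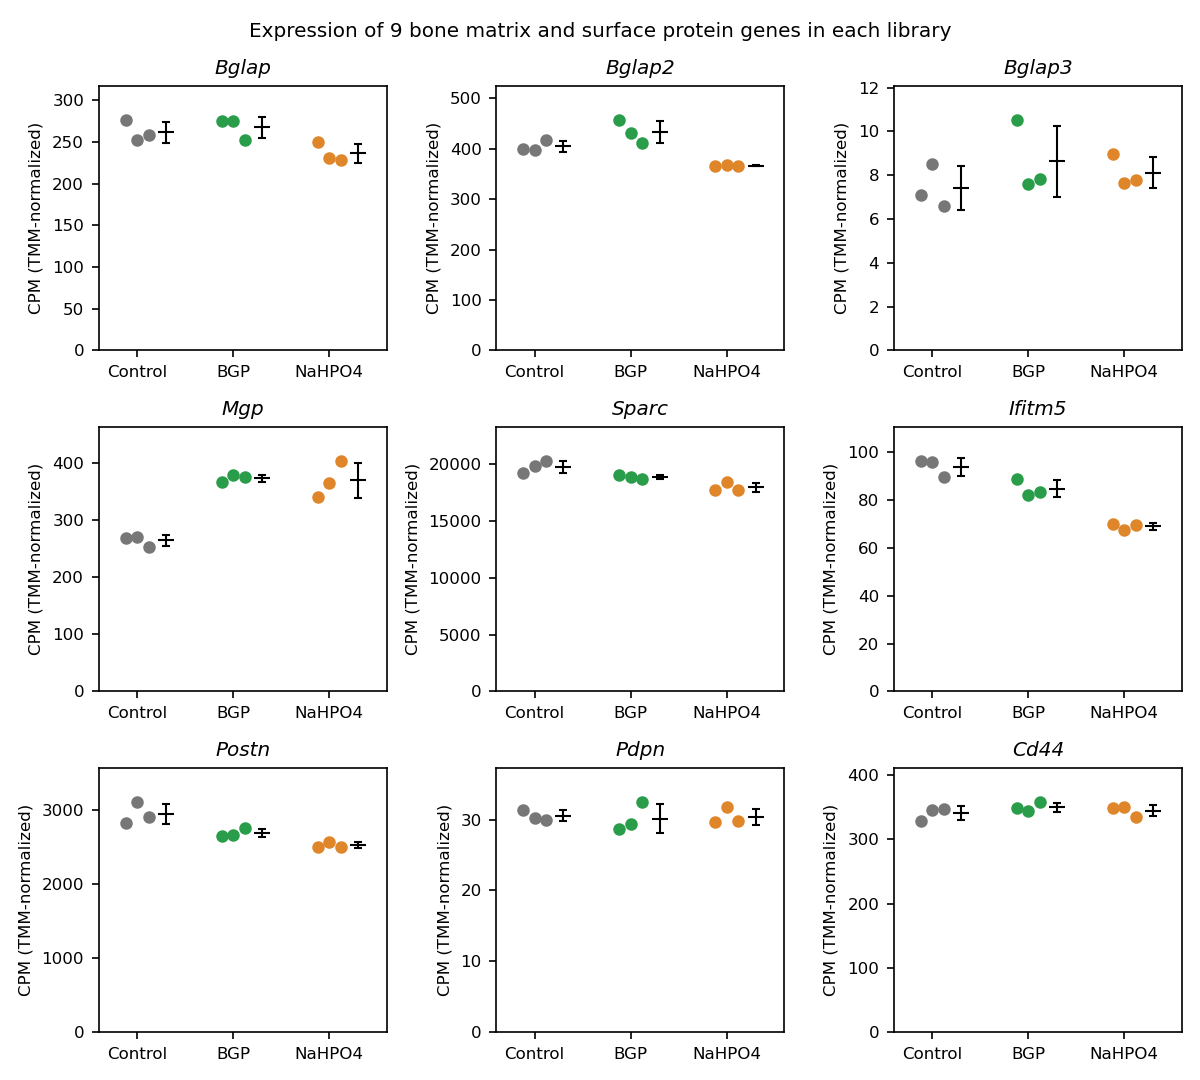
TMM-normalized CPM of the 9 genes in Control (grey), BGP (green) and NaHPO4 (orange), with 1 point per library, the mean as a bar and the SD over 3 libraries as an error bar, on axes that start at 0. *Mgp* is higher in all 6 phosphate-treated libraries than in Control, *Ifitm5* steps down from Control to BGP to NaHPO4, and *Pdpn* and *Cd44* overlap throughout.

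In BGP against Control, 1 of the 9 members was higher at an FDR below 0.05 (*Mgp*), where 1.86% of all tested genes were, and 1 was lower (*Postn*), where 0.665% were. The other 7 did not pass, 0 members were DEGs (0.556% of all genes), and libraries did not overlap for 4 members (18.5% of all genes). The median log2FC of the members was 0.03 against 0.00 over all genes, and the median absolute log2FC was 0.10 against 0.07.

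In NaHPO4 against Control, 1 member was higher (*Mgp*, against 3.43% of all genes) and 5 were lower (*Bglap*, *Bglap2*, *Sparc*, *Ifitm5* and *Postn*, against 3.95%). The remaining 3 did not pass, 0 were DEGs (0.716% of all genes), and 6 did not overlap (23.2% of all genes). The median log2FC was -0.135 against 0 over all genes. *Bglap* and *Bglap2* share most of their sequence and are not separate evidence. The collagen genes *Col1a1* and *Col1a2* were also lower on average in NaHPO4, and less so in BGP. *Col1a1* stood at 43300 CPM in Control, 41500 in BGP and 37300 in NaHPO4, and *Col1a2* at 56400, 54900 and 50200. No test of these genes is given here. All values are relative to the library, and both comparisons with Control use the same Control libraries.

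In BGP against NaHPO4, 3 members were higher (*Bglap*, *Bglap2* and *Ifitm5*, against 3.33% of all genes) and 0 were lower (2.05% of all genes). No member was a DEG (0.585% of all genes), and 5 did not overlap (21.2% of all genes), *Sparc* and *Postn* being the other two. The median log2FC was 0.085 against -0.002 over all genes. Without the filter on low counts, *Sparc* and *Postn* passed as well (adjusted p = 0.0362 and 0.0287).

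**Figure D4:**
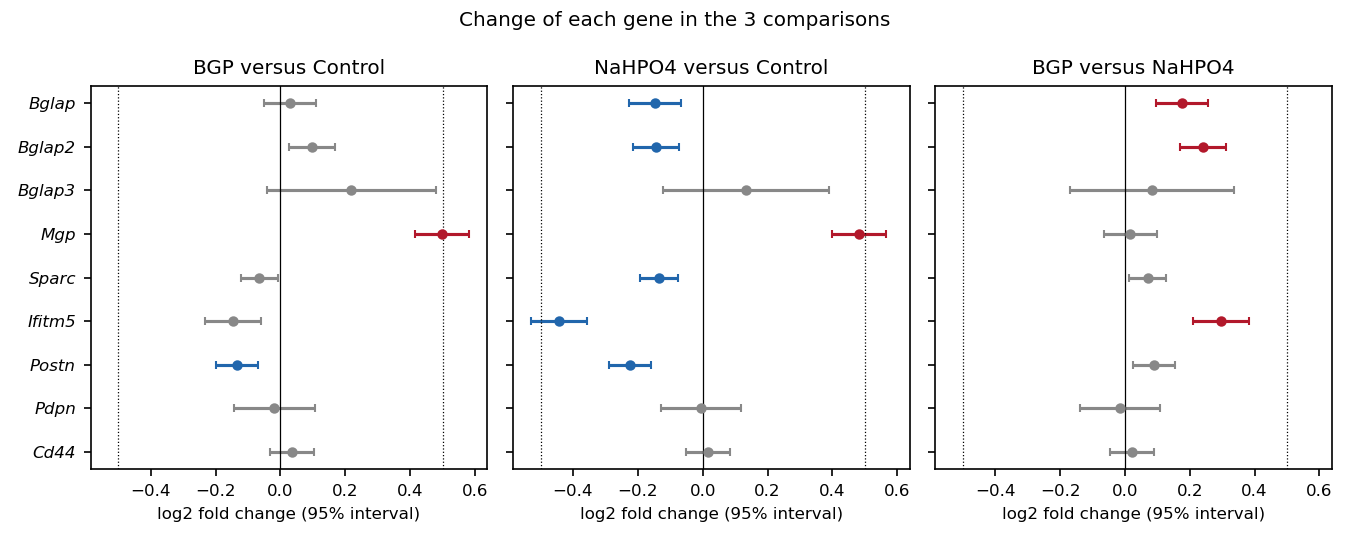
Log2 fold change of each gene in the 3 comparisons, with its 95% interval from edgeR's quasi-likelihood fit. Red and blue mark genes higher or lower at an FDR below 0.05, grey marks the rest, and dotted lines stand at 0.5 and -0.5, which no point passes.

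Of 12 genes of Gla proteins outside the members and of the vitamin K cycle, 9 were tested, *Ucma*, *Prrg3* and *Prrg4* having too few counts, and 0 passed in BGP against Control (1.86% of all genes were higher there and 0.665% lower). *Gas6*, a secreted Gla protein that binds TAM receptors, was the 1 gene lower in NaHPO4 than in Control (3.95% of all genes) and the 1 higher in BGP than in NaHPO4 (3.33%), with 994 CPM in Control, 921 in BGP and 825 in NaHPO4. The change was -0.27 on the log2 scale for NaHPO4 against Control (adjusted p = 3.69e-07) and 0.16 for BGP against NaHPO4 (adjusted p = 0.00201). The carboxylase gene *Ggcx* and the reductase gene *Vkorc1* passed in 0 of the 3 comparisons.

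All 14 genes of the list of osteocalcin regulators were tested. With BGP, 2 rose and 1 fell, against 1.86% and 0.665% of all genes, and with NaHPO4, 1 rose and 3 fell, against 3.43% and 3.95%. *Vdr*, the vitamin D receptor, stood at 131 CPM in Control, 158 in BGP and 108 in NaHPO4, with a log2FC of 0.26 for BGP (adjusted p = 0.000585) and of -0.29 for NaHPO4 against Control (adjusted p = 6.73e-05). Its BGP and Control libraries overlapped. Its difference between BGP and NaHPO4 passed the DEG minimum (log2FC 0.55, adjusted p = 2.24e-10). *Bhlhe40*, a transcriptional repressor, rose by 0.48 on the log2 scale with BGP (adjusted p = 1.55e-09) and by 0.27 with NaHPO4 (adjusted p = 9.15e-05), and *Cebpb*, a leucine zipper factor, fell with both (-0.26, adjusted p = 0.00196, and -0.27, adjusted p = 0.000384). *Dlx5*, a homeobox factor, fell with NaHPO4 (-0.14, adjusted p = 0.0142). In BGP against NaHPO4, 3 were higher and 0 lower (3.33% and 2.05% of all genes), namely *Vdr*, *Bhlhe40* (0.21, adjusted p = 0.00212) and *Sp7*, the osteoblast factor osterix (0.13, adjusted p = 0.00994). The list's median log2FC lay within 0.05 of 0 in all comparisons.

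Of 22 relatives of SPARC and other matricellular proteins, which act on cells from the matrix, 20 were tested. With BGP 1 rose and 1 fell, against 1.86% and 0.665% of all genes. With NaHPO4 2 rose and 6 fell, against 3.43% and 3.95%, and in BGP against NaHPO4 5 were higher and 2 lower, against 3.33% and 2.05%. *Ccn2*, a connective tissue growth factor, stood at 39.3 CPM in Control, 76.2 in BGP and 61.2 in NaHPO4, a rise of 0.96 on the log2 scale for BGP (adjusted p = 8.03e-16) and of 0.64 for NaHPO4 (adjusted p = 7.4e-11). *Comp*, a cartilage matrix protein, fell with both (-0.44, adjusted p = 0.0128, and -0.49, adjusted p = 0.00141). *Ccn3* (-0.56, adjusted p = 0.016) and the thrombospondin *Thbs3* (-0.41, adjusted p = 0.0198) fell with NaHPO4, both from under 10 CPM. In BGP against NaHPO4, *Ccn3* (0.66, adjusted p = 0.00482), *Ccn1* (0.32, adjusted p = 1.35e-07) and *Ccn2* (0.31, adjusted p = 6.68e-05) were higher and *Ccn5* lower (-0.50, adjusted p = 0.000132). The list's median log2FC was -0.051 with BGP, -0.072 with NaHPO4 and 0.086 between them.

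All 12 genes of periostin's partners and of matrix maturation were tested. With BGP 3 rose and 0 fell, against 1.86% and 0.665% of all genes. These were the integrin subunits *Itgb3* (log2FC 0.51, adjusted p = 0.000457) and *Itgb5* (0.16, adjusted p = 0.00225), through which cells bind periostin, and the lysyl oxidase relative *Loxl3* (0.13, adjusted p = 0.039). With NaHPO4 1 rose and 4 fell (3.43% and 3.95% of all genes), the largest changes being *Loxl1* (-0.36, adjusted p = 0.00307), the procollagen protease gene *Bmp1* (-0.21, adjusted p = 2.11e-05), *Loxl3* (0.19, adjusted p = 0.000297) and *Loxl4* (-0.17, adjusted p = 0.00281). The *Loxl1* libraries of NaHPO4 and Control overlapped. In BGP against NaHPO4 4 were higher and 0 lower (3.33% and 2.05% of all genes), namely *Itgb3* (0.33, adjusted p = 0.0202), *Loxl1* (0.31, adjusted p = 0.017), *Bmp1* (0.20, adjusted p = 8.05e-05) and *Loxl4* (0.16, adjusted p = 0.00578).

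Relatives of *Ifitm5* moved in both directions. Of 10 relatives and partners, 8 were tested, *Ifitm6* and *Ifitm7* having too few counts. In NaHPO4 against Control 1 was higher and 2 lower (3.43% and 3.95% of all genes), in BGP against Control 1 was higher (1.86%), and in BGP against NaHPO4 2 were higher and 2 lower (3.33% and 2.05%). With NaHPO4, *Ifitm1* fell (log2FC -0.43, adjusted p = 2.33e-06) while *Ifitm3* rose (0.28, adjusted p = 0.000229), both of them antiviral membrane proteins, and the tetraspanin partner *Ptgfrn* fell (-0.21, adjusted p = 0.00927). With BGP, *Cd9*, a tetraspanin, was the only one to pass (0.12, adjusted p = 0.034). In BGP against NaHPO4, *Ifitm1* (0.29, adjusted p = 0.00143) and *Ptgfrn* (0.22, adjusted p = 0.00887) were higher and *Ifitm3* (-0.31, adjusted p = 8.51e-05) and *Ifitm2* (-0.24, adjusted p = 0.000182) lower. Of 15 partners of podoplanin and CD44, including hyaluronan enzymes, 12 were tested, and *Cd9* with BGP was the only call in the 3 comparisons.

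The 2 members with the largest changes were set beside the genes whose profile over the 9 libraries was most like theirs. Likeness was the root mean square difference of log2 CPM, with each gene's mean taken off, among 9191 tested genes of at least 10 CPM. The nearest to *Mgp* were *Capg*, an actin-capping protein (difference 0.0505), *Emp1*, an epithelial membrane protein (0.0944), and *Lbh* (0.0986). Their log2FC with BGP and NaHPO4 was 0.46 and 0.45 for *Capg*, 0.55 and 0.55 for *Emp1*, and 0.44 and 0.36 for *Lbh*. The nearest to *Ifitm5* were *Mapk1ip1* (0.048), the receptor phosphatase *Ptprv* (0.0528) and *Smpd3*, a neutral sphingomyelinase (0.056). Their log2FC was -0.15 and -0.44 for *Mapk1ip1*, -0.14 and -0.42 for *Ptprv*, and -0.13 and -0.38 for *Smpd3*. Genes were picked for this likeness, so it is a description with no test.

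**Figure D5:**
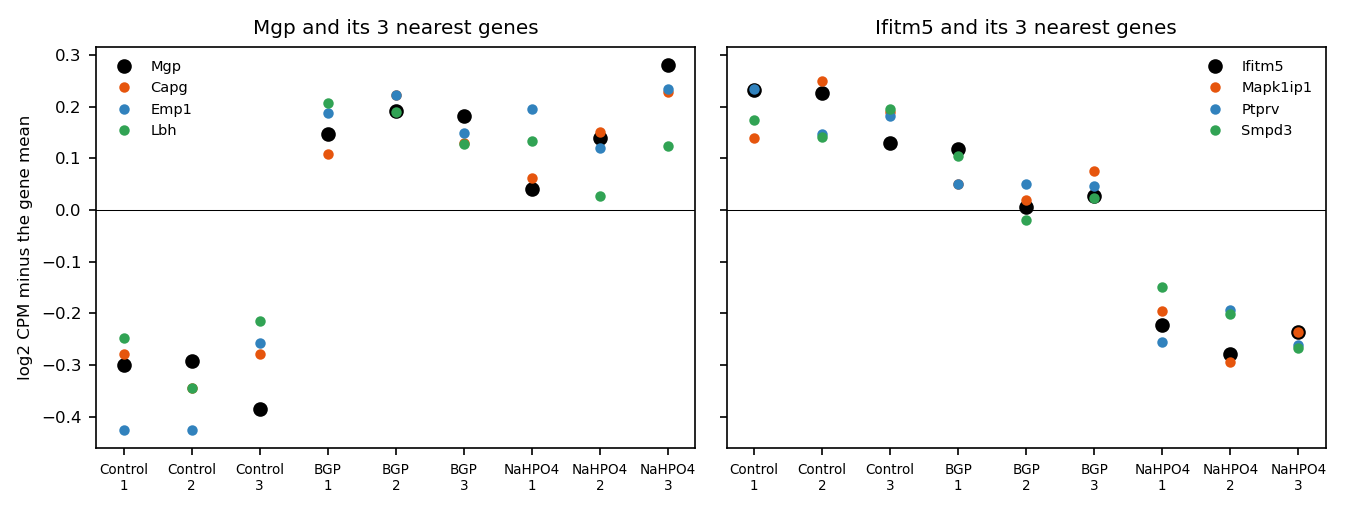
Log2 CPM minus the gene's mean in each of the 9 libraries, for *Mgp* (left) and *Ifitm5* (right) in black and their 3 nearest genes in colour, where points of near-equal value cover each other. On the left the Control libraries lie below 0 and all phosphate-treated libraries above it, and on the right the values step down from Control through BGP to NaHPO4.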

How the data were processed

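RNA sequencing of 9 libraries was analysed, 3 each of Control, BGP and NaHPO4, grouped by the sample labels. The authors deposited whole-number read counts per Ensembl gene, mapped to GRCm39; the aligner, the counting program and the use of strand are not given in the sources used here. They also deposited a TMM-scaled signal, which is the same counts multiplied by 1 factor per library (1.01 to 1.32), and it was used only for gene names. In both, 0 columns belonged to other samples, and 1492 lines had no gene name.

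Counts were filtered with filterByExpr (minimum count 10) of edgeR 4.0.16 and scaled by TMM. A model over all 9 libraries was tested with glmQLFTest for the 3 comparisons, with Benjamini-Hochberg adjustment over 13679 genes and an FDR threshold of 0.05. A DEG also had an absolute log2FC above 0.5, as in the study's methods. SEs and 95% intervals were derived from the quasi-likelihood F statistic. Libraries held 21390839 to 28234404 counts, and precision depended on these counts and on the spread between libraries. Single values were compared by exact permutation. The procedure was also run on simulated counts, with set changes larger than that of any member. Its outcome is not given here and lends no support to the calls above.

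Alternatives were a fit of the compared conditions only, DESeq2 1.42.0, the likelihood ratio test, other scalings and filters, a replicate block, summed osteocalcin genes and leaving out each library. Members and gene lists were chosen with earlier results of these data known. Named were all members, at most 4 called genes per list and comparison by absolute log2FC, and the 3 nearest profiles of the 2 members that changed most. *Ggcx* and *Vkorc1* and the cell type markers were named beyond this rule, after their values were seen.

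Positions, lengths (13631 tested genes) and coding sequences came from GENCODE on GRCm39. Promoters came from a RefSeq table made on GRCm38.p6 and were placed on GRCm39 by exact match. R 4.3.3, Python 3.11.15, pandas 2.3.3 and matplotlib 3.10.9 were used.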

Additional observations from a re-analysis of the deposited data

How the results depend on the processing

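Over 18 alternatives, 448 of 477 member changes kept direction and side of the threshold. Leaving out 1 library at a time gave 1 to 3 called members for BGP against Control (2 as reported) and 0 to 1 DEGs in each comparison with Control, *Mgp* being that DEG. Fitting only the compared conditions gave 1 DEG for BGP against Control, total counts as the scale gave 1 for NaHPO4 against Control, and no filter on low counts gave 5 called members (3 as reported) for BGP against NaHPO4. All reversals were of uncalled values near 0. With total counts these were *Pdpn* at 0.02 for NaHPO4 against Control, and *Mgp* at -0.012 and *Cd44* at -0.006 for BGP against NaHPO4. With 1 library left out, *Pdpn* ranged from -0.076 to 0.017 for BGP against Control, -0.035 to 0.016 for NaHPO4 against Control and -0.072 to 0.021 for BGP against NaHPO4. *Cd44* ranged from -0.009 to 0.035 for NaHPO4 against Control, and *Bglap3* from -0.076 to 0.17 and *Mgp* from -0.039 to 0.081 for BGP against NaHPO4. The cause of these shifts was not tested.

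Deviations of libraries with the same replicate number correlated at 0.0127 on average (-0.0092 to 0.0426, 9 pairs). For different numbers the mean was -0.00633 (-0.0456 to 0.0239, 18 pairs). No large effect was shared by number, but these correlations cannot tell whether the cultures were paired. With the replicate number as a block, 3, 6 and 3 members were called for BGP and NaHPO4 against Control and BGP against NaHPO4, and *Ifitm5* passed for BGP against Control (log2FC -0.147, adjusted p = 0.049), the only call it changed. Over all genes, the likelihood ratio test raised the DEGs from 76 to 107 for BGP against Control. It raised them from 98 to 159 for NaHPO4 against Control and from 80 to 122 for BGP against NaHPO4. With 1 library left out, called genes ranged from 202 to 406 for BGP against Control (346 as reported). They ranged from 650 to 992 for NaHPO4 against Control (1009 as reported) and from 478 to 769 for BGP against NaHPO4 (736 as reported). *Bglap3* had 152 to 246 counts a library and a coefficient of variation of 8.86% to 18.5% within conditions.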
